A study of Homo sapiens with 20 samples.

Results

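Aminoacyl-tRNA synthetases are the enzymes that join each amino acid to its transfer RNA, and their genes were followed here in a human pericyte line exposed to extracellular NAMPT, to PDGF-BB or to both. The genes were taken by symbol: a single-letter amino acid code followed by ARS, with or without a final 2, and EPRS, AIMP1, AIMP2 and EEF1E1. This gave 38 of the 58676 genes in the count table, and all 38 passed the filter on low counts. The cytosolic class held 21 of them, made up of 18 enzyme genes and 3 scaffold genes (AIMP1, AIMP2 and EEF1E1). The mitochondrial class held the 17 genes whose symbols end in ARS2. GARS and KARS, which are each known to encode both a cytosolic and a mitochondrial enzyme, were counted as cytosolic.

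The 20 libraries came from 1 immortalized human pericyte line (Celther). Cells received 500 ng/mL of eNAMPT, 20 ng/mL of PDGF-BB (both recombinant human proteins) or the 2 together at the same doses, and control cells received neither. All were exposed for 4 hours, with 5 replicates in each of the 4 groups. Nicotinamide phosphoribosyltransferase (NAMPT) makes an NAD precursor inside cells, and its extracellular form, eNAMPT, acts like a cytokine. PDGF-BB is a ligand of the PDGF receptors that mural cells carry. The labels call the replicates biological without tying them to separate cultures, and the line is 1 source, so p-values measure the spread between these samples, which may be technical.

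A synthetase activates its amino acid with ATP and transfers it to the matching tRNA, which then enters the ribosome. Vertebrate cells run this chemistry in 2 compartments, with largely separate nuclear genes for the cytosolic and the mitochondrial enzymes. Several cytosolic enzymes are held with AIMP1, AIMP2 and EEF1E1 in the multi-tRNA synthetase complex. Mitochondria have no glutaminyl enzyme of their own, and glutaminyl-tRNA is made there by EARS2 and an amidotransferase. Many cytosolic synthetase genes are known targets of ATF4, the transcription factor of the amino acid response, and WARS is known to be induced by interferon.

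Gene counts ranged from 2894878 to 4011066 per library. Levels are CPM, which are counts scaled by TMM to 1000000 per library. Of 10 pericyte markers, DES averaged under 1 CPM, and the 10 together summed to 321 to 444 CPM. The defining endothelial markers CDH5, VWF and KDR, the leukocyte markers PTPRC, CD3E and MS4A1, the neural or glial markers SOX10, GFAP, TUBB3 and RBFOX3 and the epithelial markers EPCAM and CDH1 each averaged under 1 CPM. The remaining markers of those lists were higher, with CD14 at 17.8, CD68 at 3.85, TEK at 2.52, PECAM1 at 1.73, MBP at 23.2, KRT8 at 10.4, KRT18 at 178 and KRT19 at 1.37 CPM on average. Fibroblast markers summed to 2904 to 4160.0 CPM, most of it from COL1A1, at 3299 CPM on average. The others averaged 92.5 (PDGFRA), 30.7 (FAP), 5.88 (DCN) and 4.56 CPM (LUM). At an adjusted p under 0.05 (edgeR), all 6 treatment check genes (CXCL1, CXCL8, NFKBIA, EGR1, DUSP6 and PDGFA) rose with both factors together, against 1.63% of all genes. With PDGF-BB 5 of 6 rose, against 1.05%, and with eNAMPT 3 of 6, against 0.0743%. These 6 genes were chosen with earlier results of these data known.

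Each of the 38 genes had counts in every library. To compare genes, CPM were divided by the exon length of the gene in kb (CPM per kb). On that scale the median of the cytosolic class was 24.3 CPM per kb and the median of the mitochondrial class 3.10 CPM per kb. RARS, the arginyl enzyme of the multi-tRNA synthetase complex (ENSG00000113643, chromosome 5, 168486445 to 168519299, plus strand, GRCh38), stood highest at 103 ± 8.12 (SD over 20 libraries, range 89.6 to 120.2). IARS, the isoleucyl enzyme (ENSG00000196305, chromosome 9, 92210207 to 92293756, minus strand), stood lowest in its class at 9.67 ± 0.924 (SD over 20 libraries, range 7.82 to 11.3). That rank is uncertain, since VARS stood at 9.70 CPM per kb. With the longest annotated transcript as the length, VARS (13.7) lay below IARS (15.4). The count table used here also holds only 54.5% of the counts that the other deposited table gives IARS. Of the 17 mitochondrial genes 16 are given singly, and among these RARS2 (ENSG00000146282, chromosome 6, 87514378 to 87590003, minus strand) was highest at 19.4 ± 2.46 (SD over 20 libraries, range 14.7 to 24.0) and PARS2, the prolyl enzyme (ENSG00000162396, chromosome 1, 54756898 to 54764514, minus strand), lowest at 1.64 ± 0.567 (SD over 20 libraries, range 0.416 to 2.76). Whether the libraries covered whole transcripts or their 3' ends is not given in the sources used here, and a scale per length holds only for whole transcripts.

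**Figure D1:**
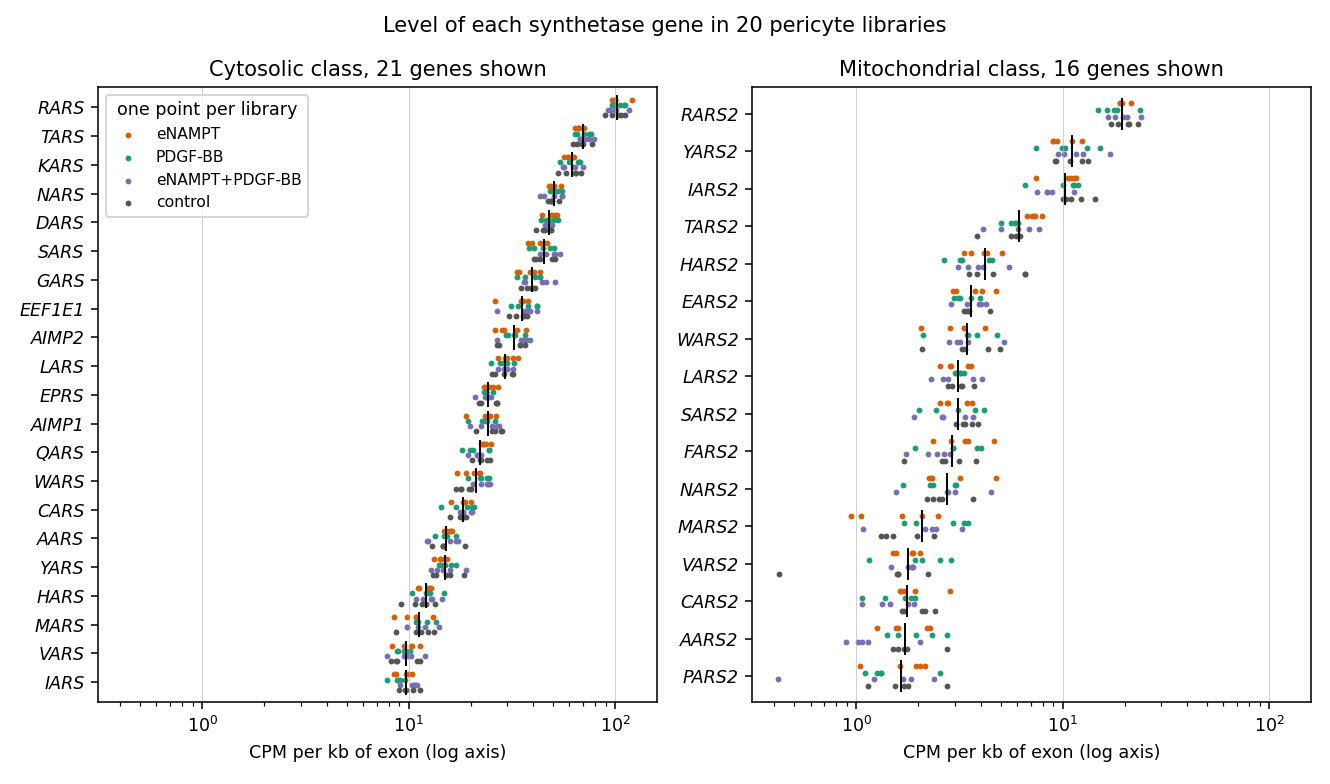
Level of each gene in CPM per kb of exon (log axis), 1 point per library, coloured by group, with a black bar at the mean of the 20 libraries. Cytosolic genes (left) had means between 9.67 and 103 CPM per kb and the 16 mitochondrial genes drawn (right) between 1.64 and 19.4, and the 4 groups lie over each other for nearly every gene.

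Of the 17 mitochondrial enzymes, 16 could be set beside the cytosolic enzyme for the same amino acid, with EPRS serving for both EARS2 and PARS2. FARS2 had no partner, since FARSA and FARSB, the genes of the cytosolic phenylalanyl enzyme, fall outside the symbols taken. The cytosolic gene was higher on average in 15 of the 16 pairs and in every library in 14. The median ratio of the pairs was 7.80. NARS, the asparaginyl enzyme, stood 18.3 times above NARS2. The exception was isoleucine, where IARS, for which the table used here holds 54.5% of the counts of the other deposited table, stood at 0.942 times the level of IARS2 per kb. For tyrosine, YARS averaged 1.35 times YARS2, and in some libraries YARS2 was the higher. With the longest annotated transcript as the length, the cytosolic gene was higher on average in all 16 pairs and in every library in 15, with a median ratio of 9.62.

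WARS, the gene of the tryptophanyl enzyme, was the one synthetase gene that rose. A gene was called at an adjusted p under 0.05 (edgeR quasi-likelihood with Benjamini-Hochberg adjustment over 12111 genes). Across 5 pairwise comparisons, 2 pooled comparisons and the interaction, WARS was called in 2 of these 8 and no other member in any. With eNAMPT against control 0 of 38 members were called, where 0.0743% of all genes were. PDGF-BB against control gave 0 of 38, against 1.21% of all genes. With both factors against control the count was 1 of 38, against 1.98%, and the share of all genes whose 5 treated and 5 control libraries did not overlap was 2.93%, with WARS among them. Adding eNAMPT to PDGF-BB called 0 of 38 members and 0.0578% of all genes, and adding PDGF-BB to eNAMPT 0 of 38 and 1.53%. Over the 10 libraries with PDGF-BB and the 10 without, 1 of 38 members was called, against 3.96% of all genes, and over the 10 with eNAMPT and the 10 without 0 of 38, against 0.157%. A count of 1 in 38 lies close to the share of all genes in both comparisons, so it says nothing particular of the family. DESeq2 and limma-voom each called WARS in the same 2 comparisons and 0 members in the other 6. At an unadjusted p under 0.05, the members numbered 1 with eNAMPT, 3 with PDGF-BB, 4 with both, 2 for eNAMPT added to PDGF-BB, 3 for PDGF-BB added to eNAMPT, and 3 and 0 in the pooled PDGF-BB and pooled eNAMPT comparisons, against 3.61%, 9.64%, 10.9%, 3.4%, 10.9%, 15.1% and 3.63% of all genes. The comparisons against control share its 5 libraries.

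The intervals say how much change the data allow. For PDGF-BB over the pooled libraries, all 21 cytosolic genes had a 95% interval of the log2 fold change inside ±0.5, and for eNAMPT likewise all 21. Of the 17 mitochondrial genes, 10 lay inside ±0.5 and 16 inside ±1 for PDGF-BB, and 13 and 17 for eNAMPT. With PDGF-BB the median of the log2 fold changes was 0.04 for the cytosolic class, with 14 of 21 genes above 0, and -0.13 for the mitochondrial class, with 13 of 17 below 0, beside -0.01 for all genes. With eNAMPT the medians were 0.01 for the cytosolic class and -0.05 for the mitochondrial class, against a median for all genes that rounds to 0. Without control replicate 1, PDGF-BB replicate 2 or 3, or eNAMPT+PDGF-BB replicate 4 or 5, the cytosolic median with PDGF-BB was 0.02, and without eNAMPT+PDGF-BB replicate 4 the mitochondrial one was -0.08. Leaving out 1 library gave eNAMPT medians between -0.01 and 0.04 for the cytosolic class and between -0.08 and -0.01 for the mitochondrial class. Under spike-in scaling the cytosolic medians turned negative, at -0.02 with PDGF-BB and -0.07 with eNAMPT, where all genes stood at -0.07 and -0.08.

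**Figure D2:**
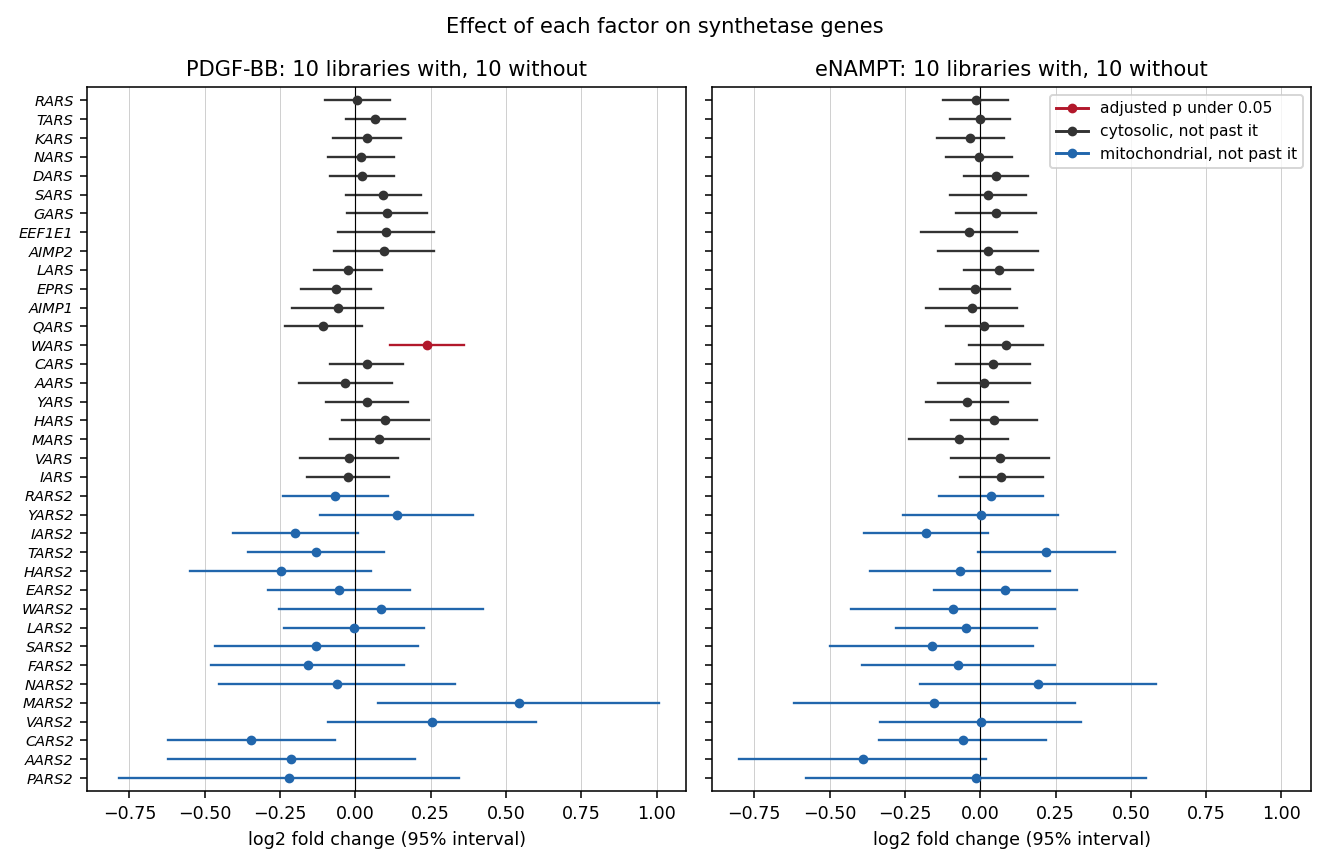
Log2 fold change of 21 cytosolic and 16 mitochondrial genes with its 95% interval (horizontal axis) over the 10 libraries with PDGF-BB and the 10 without (left) and over the 10 with eNAMPT and the 10 without (right). WARS, in red on the left, is the one gene past an adjusted p under 0.05, at 0.24, and the intervals of the mitochondrial genes, in blue, are wider on the whole than those of the cytosolic genes.

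WARS (ENSG00000140105, chromosome 14, 100333788 to 100376805, minus strand) rose when PDGF-BB and eNAMPT were given together and in the pooled PDGF-BB comparison. WARS read 109, 121, 139.8, 142 and 132 CPM with eNAMPT, 141, 123, 142, 156 and 152 with PDGF-BB, 152, 143, 129.7, 157 and 154 with both factors, and 128, 113, 115, 124 and 107 in control cells. All 5 libraries with both factors lay above the highest control library, while the PDGF-BB and the eNAMPT groups each overlapped the control group. The group means were 129 ± 13.8 CPM with eNAMPT, 143 ± 12.6 with PDGF-BB, 147 ± 11.2 with both factors and 117 ± 8.32 in control cells (SD, n = 5 each). Both factors together raised WARS 1.25-fold over control (log2 fold change 0.32 with SE 0.0865, adjusted p = 0.0310, edgeR). Over the pooled libraries PDGF-BB raised it by 0.24 on the log2 scale (SE 0.0610, adjusted p = 0.0144). PDGF-BB alone gave a log2 fold change of 0.28 with SE 0.0865, adjusted p = 0.123 by edgeR. For eNAMPT alone the log2 fold change was 0.13 with SE 0.0870, adjusted p = 0.9998 by edgeR. Neither passed the threshold in this fit. An alternative fit with replicate number as a block did call WARS with PDGF-BB alone, as given below under the processing. In a bulk library, fewer cells of a kind and less RNA per cell cannot be told apart. In the order of the group means the neighbouring groups were not told apart. Both factors against PDGF-BB gave a log2 fold change of 0.05 (95% interval -0.13 to 0.22). Setting eNAMPT against PDGF-BB, the authors' deposited table gave a log2 ratio, eNAMPT over PDGF-BB, of -0.13 with an adjusted p of 0.683.

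The call of WARS with both factors sits near the threshold. It ended without eNAMPT+PDGF-BB replicate 1 (adjusted p = 0.0729), 4 (0.105) or 5 (0.0828) and without control replicate 2 (0.0834), 3 (0.0772) or 5 (0.0945), each by edgeR, with log2 fold changes between 0.29 and 0.31. The pooled PDGF-BB call held in all 20 such fits. With libraries scaled by spike-in counts in place of TMM, the median of all genes moved to -0.14 with both factors against control and WARS stood at 0.19 (adjusted p = 0.905). The pooled PDGF-BB call ended under that scaling too, at 0.18 (adjusted p = 0.917), and it did not reach an adjusted p of 0.01. The authors' deposited table called WARS in the same comparison, with an adjusted p of 0.0144, and no other member in any of its 6 comparisons. Among the keratins, KRT18 was higher with both factors too (log2 fold change 0.39, adjusted p = 0.0154, edgeR). KRT8 was not, at -0.03 (adjusted p = 0.983, edgeR). The 5 epithelial markers summed to 136 to 182 CPM with eNAMPT, 175 to 237 with PDGF-BB, 199.9 to 255 with both factors and 155 to 198 in control cells. Of the 5, only 2 were tested, KRT8 and KRT18, and EPCAM and CDH1 stayed under 1 CPM on average. KRT18 was called with both factors against control and over the pooled libraries with PDGF-BB. It was also called with both factors against eNAMPT (log2 fold change 0.49, adjusted p = 0.00136, edgeR). The pericyte marker CSPG4 was also called over the pooled libraries with PDGF-BB (log2 fold change 0.28, adjusted p = 0.0272, edgeR). The part of these markers in the level of WARS was not tested. Antisense genes and WDR25 overlap WARS on the opposite strand, and whether the counting used strand is not given in the sources used here.

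**Figure D3:**
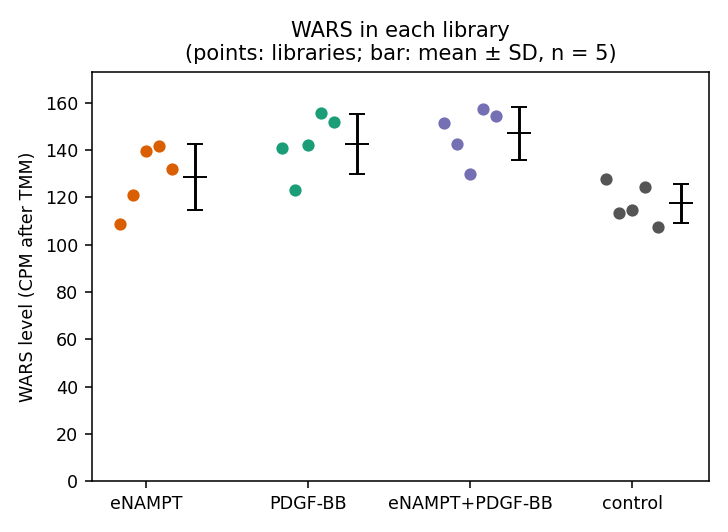
WARS in CPM after TMM (vertical axis, from 0) in each library of the 4 groups, with the mean and SD of 5 libraries beside the points. The 5 libraries with both factors span 129.7 to 157 CPM, above the control range of 107 to 128 CPM, and the other 2 treated groups overlap the controls.

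RefSeq (GRCh38.p14) gives WARS, there named WARS1, 2 start sites on the minus strand, each with a promoter window of 250 bases before to 50 after the start. The downstream one holds a motif of the interferon-stimulated response element type. It is shown because WARS was the member that rose and because interferon response genes moved in the same libraries. The capitals mark the letters GAAA, any 2 bases and GAAA, searched on both strands, with its first base at -55 from the start.
WARS1, chr14:100375298-100375597, minus strand: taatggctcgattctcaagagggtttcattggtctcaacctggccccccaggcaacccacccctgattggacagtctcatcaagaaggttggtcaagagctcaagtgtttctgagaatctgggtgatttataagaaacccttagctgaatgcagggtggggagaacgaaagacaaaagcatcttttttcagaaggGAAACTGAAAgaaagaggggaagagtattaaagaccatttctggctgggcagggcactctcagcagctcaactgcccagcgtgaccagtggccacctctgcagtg
The other WARS window, at chr14:100376278-100376577, does not hold these letters. The motif occurs in 4.38% of the 27305 promoters in the table, and among the 31 members with a window it also occurs in EARS2, whose level did not pass in any comparison. A match is a description of the letters and not a binding site.

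Genes of the interferon response rose with PDGF-BB beside WARS. Of 20 listed genes 18 were tested. With PDGF-BB 5 of 18 rose and 0 fell, where 1.05% of all genes rose. With both factors 6 of 18 rose, against 1.63%, and over the pooled libraries with PDGF-BB 8 of 18 rose, against 2.96%. With eNAMPT alone 0 of 18 were called, against 0.0743% of all genes. At an unadjusted p under 0.05 stood 3 of 18, against 3.61% of all genes (edgeR). The median log2 fold change of the 18 was 0.26 in the pooled PDGF-BB comparison, against -0.01 for all genes. GBP1, an interferon-induced GTPase, averaged 246 ± 34.8 CPM with eNAMPT, 324 ± 24.0 with PDGF-BB, 322 ± 43.9 with both and 224 ± 19.2 in control cells (SD, n = 5 each). Its pooled log2 fold change with PDGF-BB was 0.46 (SE 0.0634, adjusted p = 1.23e-06). IFI44L rose by 0.57 (SE 0.0989, adjusted p = 0.000114), the antiviral GTPase gene MX1 by 0.54 (SE 0.0978, adjusted p = 0.000183) and OAS1, an oligoadenylate synthetase gene, by 0.68 (SE 0.127, adjusted p = 0.000296), all by edgeR. IRF1, PSMB9 and B2M were not called (-0.07, -0.05 and 0.04). The part of any one of these genes in the level of WARS was not tested.

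**Figure D4:**
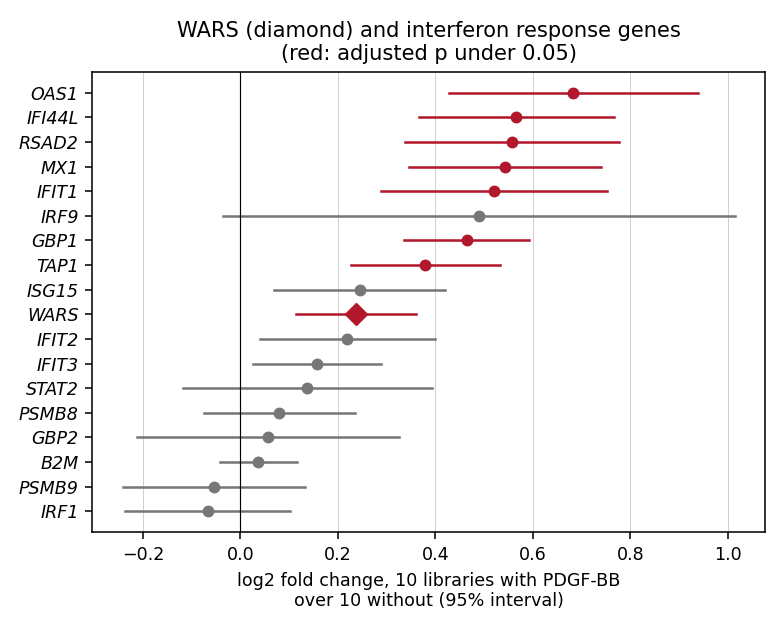
Log2 fold change with its 95% interval (horizontal axis) of WARS, drawn as a diamond, and of 17 of the 18 interferon response genes over the 10 libraries with PDGF-BB and the 10 without. Red marks an adjusted p under 0.05; WARS at 0.24 lies below OAS1 at 0.68 and GBP1 at 0.46.

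Enzymes and scaffolds of the multi-tRNA synthetase complex did not pass in any comparison. RARS read 331, 343, 343, 339.8 and 411 CPM with eNAMPT, 376, 384, 341, 329 and 363 with PDGF-BB, 344, 317, 324, 343 and 399.6 with both factors, and 352, 366, 331, 307 and 382 in control cells. The groups overlap throughout, and eNAMPT replicate 5 was the highest library of all. IARS gave the smallest p of the cytosolic class when eNAMPT was added to PDGF-BB. IARS read 72.2, 73.6, 76.9, 64.1 and 63.0 CPM with eNAMPT, 57.9, 65.2, 65.9, 67.4 and 71.3 with PDGF-BB, 67.4, 81.3, 76.4, 79.5 and 78.2 with both factors, and 83.5, 72.0, 71.2, 77.7 and 66.5 in control cells. Libraries with PDGF-BB alone tended to the low side and those with both factors to the high side, with overlapping ranges. Both factors against PDGF-BB gave a log2 fold change of 0.23, 95% interval 0.03 to 0.42, unadjusted p = 0.0224, adjusted p = 0.9998 by edgeR. In the deposited count table used here IARS carried 54.5% of the counts that the other deposited table gave it, and its overlap with SNORA84 and MIR3651 on the same strand leaves its level uncertain.

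EPRS (ENSG00000136628, chromosome 1, 219968601 to 220046658, minus strand) encodes the one enzyme that charges both glutamic acid and proline tRNAs. EPRS read 134, 147, 140.1, 127 and 128 CPM with eNAMPT, 129.6, 129, 139, 126 and 128 with PDGF-BB, 114, 136, 127, 129.7 and 133 with both factors, and 121, 146, 145, 119.9 and 146 in control cells. All 4 groups overlapped, and the pooled log2 fold change was -0.07 (95% interval -0.18 to 0.05) with PDGF-BB and -0.02 (95% interval -0.13 to 0.10) with eNAMPT. KARS, the lysyl enzyme (ENSG00000065427, chromosome 16, 75627474 to 75648643, minus strand), serves the cytosol and the mitochondrion from 1 gene. KARS read 229.9, 239, 253, 240.4 and 257 CPM with eNAMPT, 244, 271, 276, 220.1 and 269.9 with PDGF-BB, 259, 231, 254, 228 and 283 with both factors, and 234, 259, 262, 216 and 278 in control cells. The groups overlapped here too, with pooled log2 fold changes of 0.04 (95% interval -0.07 to 0.15) with PDGF-BB and -0.03 (95% interval -0.14 to 0.08) with eNAMPT. LARS (ENSG00000133706, chromosome 5, 146113038 to 146182660, minus strand) is the leucyl enzyme, known also as a leucine sensor upstream of mTORC1. LARS read 221, 243, 238, 260.1 and 276 CPM with eNAMPT, 202, 224, 243, 232 and 263 with PDGF-BB, 242, 244, 221, 235 and 259 with both factors, and 206, 213, 259.7, 235 and 257 in control cells. The 4 groups covered nearly the same range, and the log2 fold change over the pooled libraries with eNAMPT was 0.06 (95% interval -0.05 to 0.18), and 0.04 without PDGF-BB replicate 1. QARS, the glutaminyl enzyme (ENSG00000172053, chromosome 3, 49095932 to 49105135, minus strand), had the smallest p after WARS over the pooled libraries with PDGF-BB. QARS read 107, 105, 108, 111 and 118 CPM with eNAMPT, 96.2, 93.0, 116, 115 and 85.3 with PDGF-BB, 106, 100.5, 104, 101 and 91.4 with both factors, and 117, 104, 106, 113 and 95.5 in control cells. The group with PDGF-BB held both the lowest library and some of the high ones, and the pooled log2 fold change was -0.11 (95% interval -0.23 to 0.02, unadjusted p = 0.0984). DARS, the aspartyl enzyme (ENSG00000115866, chromosome 2, 135906677 to 135986100, minus strand), had the smallest p after WARS for eNAMPT alone, with a log2 fold change of 0.10 (95% interval -0.05 to 0.25, unadjusted p = 0.183). DARS read 195, 199, 209.6, 177 and 206 CPM with eNAMPT, 175, 193, 185, 203 and 211 with PDGF-BB, 184, 197, 192, 196 and 198 with both factors, and 166, 195, 183, 179 and 197 in control cells. With eNAMPT 3 of 5 libraries lay above the highest control and the other 2 within the control range.

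The scaffold genes showed the same overlap. AIMP1 (ENSG00000164022, chromosome 4, 106315544 to 106349226, plus strand) encodes the scaffold protein that is also the precursor of the cytokine EMAP II. AIMP1 read 81.6, 62.8, 82.3, 78.1 and 88.1 CPM with eNAMPT, 64.7, 75.2, 79.6, 87.6 and 78.2 with PDGF-BB, 74.7, 66.1, 89.4, 83.9 and 90.7 with both factors, and 70.4, 84.3, 94.2, 93.5 and 87.0 in control cells. The control libraries held the 2 highest values, with replicate 1 of the controls low. AIMP2 (ENSG00000106305, chromosome 7, 6009245 to 6023834, plus strand) encodes the core scaffold of the complex. AIMP2 read 53.2, 52.3, 48.2, 68.2 and 61.4 CPM with eNAMPT, 55.8, 59.4, 59.9, 67.1 and 54.3 with PDGF-BB, 66.7, 49.03, 64.4, 70.9 and 69.0 with both factors, and 48.96, 50.4, 67.6, 63.3 and 63.5 in control cells. Low and high libraries occurred in every group. EEF1E1 (ENSG00000124802, chromosome 6, 8073360 to 8102578, minus strand), also called AIMP3, links the complex to elongation factor 1. EEF1E1 read 55.0, 73.6, 79.3, 74.3 and 75.1 CPM with eNAMPT, 71.2, 79.5, 88.3, 88.2 and 65.8 with PDGF-BB, 88.0, 56.6, 77.7, 81.8 and 76.6 with both factors, and 64.6, 78.5, 75.8, 75.1 and 69.6 in control cells. In the eNAMPT group and the group with both factors 1 library each stood below the controls, and the rest lay within or above the control range. EEF1E1 overlaps the read-through gene EEF1E1-BLOC1S5 on the same strand, so its level is uncertain. The pooled log2 fold changes with PDGF-BB were -0.06 (95% interval -0.21 to 0.09) for AIMP1, 0.09 (95% interval -0.07 to 0.26) for AIMP2 and 0.10 (95% interval -0.06 to 0.26) for EEF1E1.

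Outside the complex, GARS had the smallest p after WARS for both factors against control, and SARS the smallest p of the class for both factors against eNAMPT. GARS, the glycyl enzyme of both compartments (ENSG00000106105, chromosome 7, 30594681 to 30634033, plus strand), is known for mutations in Charcot-Marie-Tooth disease. GARS read 139, 141, 168, 179 and 160.3 CPM with eNAMPT, 170.1, 139, 179, 151 and 179.9 with PDGF-BB, 153, 150.3, 212, 193 and 183 with both factors, and 156, 145, 166, 162 and 169 in control cells. With both factors 3 of 5 libraries lay above the highest control, and 2 lay within the control range. The log2 fold change of both factors against control was 0.16 (95% interval -0.03 to 0.34, unadjusted p = 0.0965), and 0.09 without eNAMPT+PDGF-BB replicate 3. SARS (ENSG00000031698, chromosome 1, 109213918 to 109238169, plus strand) is the seryl enzyme, whose loss in zebrafish is known to cause excess vessel branching. SARS read 152, 145, 173, 166 and 179.5 CPM with eNAMPT, 147, 156, 187, 193 and 172 with PDGF-BB, 177, 166, 195, 194 and 207 with both factors, and 158, 155, 165, 196 and 191 in control cells. Set against eNAMPT alone, both factors gave a log2 fold change of 0.20, 95% interval 0.02 to 0.38, unadjusted p = 0.0264, adjusted p = 0.366, and the ranges overlapped. Neither gene was called, and the table used here holds 82.6% of the counts that the other deposited table gives GARS. The remaining 8 cytosolic enzyme genes were MARS, which belongs to the complex, and AARS, CARS, HARS, NARS, TARS, VARS and YARS. Each averaged at most 398 CPM over the 20 libraries. Their pooled log2 fold changes with PDGF-BB lay between -0.03 and 0.10, and with eNAMPT between -0.07 and 0.06.

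The core of the C/EBP-ATF response element, which ATF4 is known to read, occurs in several cytosolic synthetase promoters. The windows below are shown because this element was more frequent among cytosolic synthetase genes than over all promoters, and because none of the genes that carry it was called. TGATGNAA, searched on both strands of the RefSeq windows (GRCh38.p14), is in capitals.
AARS, chr16:70289675-70289704, minus strand: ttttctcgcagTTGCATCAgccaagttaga
CARS, chr11:3057407-3057436, minus strand: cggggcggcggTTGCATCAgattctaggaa
GARS, chr7:30594834-30594863, plus strand: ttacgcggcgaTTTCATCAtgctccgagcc
IARS, chr9:92293692-92293721, minus strand: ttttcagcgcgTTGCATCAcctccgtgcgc
MARS, chr12:57488053-57488082, plus strand: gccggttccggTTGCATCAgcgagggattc
NARS, chr18:57621804-57621833, minus strand: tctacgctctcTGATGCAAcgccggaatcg
TARS, chr5:33440956-33440985, plus strand: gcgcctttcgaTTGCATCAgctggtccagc
YARS2, chr12:32756076-32756105, minus strand: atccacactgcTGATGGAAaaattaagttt
It occurred in 7 of the 17 cytosolic members that have a window (41.2%), in 1 of 14 mitochondrial members (7.14%) and in 1217 of 27305 promoters overall (4.46%). All 7 cytosolic matches start between -187 and 15 of the RefSeq start, and NARS and TARS have theirs just after it. The 7 carriers had a median log2 fold change with PDGF-BB over the pooled libraries of 0.04, with a range of -0.03 to 0.11, and 0 were called. The 10 cytosolic members with a window and no match had a median of 0.07, and the call among them was WARS. Among the members without a window were AARS2, DARS, LARS, VARS, VARS2 and YARS.

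Other genes of the amino acid response moved in both directions. Of 30 listed genes that are no synthetases, 29 were tested. With eNAMPT 0 were called. At an unadjusted p under 0.05 stood 0 of 29 with eNAMPT, 4 with PDGF-BB, 8 with both factors, 0 for eNAMPT added to PDGF-BB, 9 for PDGF-BB added to eNAMPT, 10 over the pooled libraries with PDGF-BB and 0 with eNAMPT, where 3.61%, 9.64%, 10.9%, 3.4%, 10.9%, 15.1% and 3.63% of all genes did (edgeR). With PDGF-BB 0 rose and 1 fell, where 1.05% of all genes rose and 0.165% fell. With both factors 1 rose and 1 fell, where 1.63% of all genes rose and 0.347% fell. Over the pooled libraries with PDGF-BB 1 rose and 2 fell, where 2.96% of all genes rose and 1.01% fell, and the median log2 fold change of the 29 was 0.09, against -0.01 for all genes. The gene that fell with PDGF-BB was SLC38A2, a neutral amino acid transporter, at 288 CPM with eNAMPT, 199 with PDGF-BB, 201 with both and 281 in control cells. Its pooled log2 fold change was -0.51 (SE 0.0551, adjusted p = 5.6e-09) by edgeR. CEBPB, a transcription factor that many stimuli induce, rose by 0.39 (SE 0.0755, adjusted p = 0.000534) over the pooled libraries by edgeR, and VLDLR, a lipoprotein receptor gene of few counts, fell (-1.36, SE 0.382, adjusted p = 0.0302). ASNS, the asparagine synthetase gene that usually marks this response, had 0 to 5 counts in every library of the count table used here and was not tested. That table holds only 54.5% of the counts that the other deposited table gives IARS. Its low count of ASNS may thus be incomplete, and the count of ASNS in the other table is not given here.

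None of the 17 mitochondrial synthetase genes was called in any of the 8 comparisons, where 0% to 3.96% of all genes were. Between 0 and 3 of the 17 had an unadjusted p under 0.05 in each, against 3.35% to 15.1% of all genes (edgeR). A count of 0 in 17 lies close to the called shares, so it says nothing particular of these genes. Their counts were low, between 3 and 210 per gene and library, and in control cells their median coefficient of variation was 21.2%, where counting error alone would give 15.1%. For the cytosolic class these were 9.91% and 4.98%. TARS2, the threonyl enzyme (ENSG00000143374, chromosome 1, 150487364 to 150507609, plus strand), was the mitochondrial member whose eNAMPT and control libraries did not overlap, where 0.652% of all genes did not. TARS2 read 29.9, 32.3, 29.7, 29.01 and 27.4 CPM with eNAMPT, 23.9, 20.4, 24.3, 23.0 and 24.8 with PDGF-BB, 31.4, 20.6, 24.7, 16.8 and 27.9 with both factors, and 24.2, 24.9, 25.3, 23.0 and 15.7 in control cells. All 5 eNAMPT libraries lay above all 5 controls. Those with PDGF-BB alone lay within the control range, and 2 of those with both factors lay above it. For eNAMPT against control TARS2 had a log2 fold change of 0.39, 95% interval 0.07 to 0.71, unadjusted p = 0.0174, adjusted p = 0.9998, with between 46 and 109 counts per library. Control replicate 5 was the lowest of the 20 libraries, and without it the log2 fold change was 0.29.

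HARS2 (ENSG00000112855, chromosome 5, 140691426 to 140699318, plus strand) and VARS2 (ENSG00000137411, chromosome 6, 30908242 to 30926459, plus strand) had the smallest p-values of the mitochondrial class with PDGF-BB. HARS2, the histidyl enzyme mutated in Perrault syndrome, shares its promoter region with HARS on the other strand. HARS2 read 16.0, 12.4, 15.5, 13.4 and 18.9 CPM with eNAMPT, 11.8, 16.9, 9.99, 16.5 and 12.1 with PDGF-BB, 15.4, 20.6, 13.0, 11.6 and 14.5 with both factors, and 13.2, 24.5, 24.6, 17.1 and 14.3 in control cells. Control replicates 2 and 3 stood above every other library, and the remaining controls lay among the treated ones. HARS2 overlaps ZMAT2 on the same strand and VARS2 overlaps GTF2H4, so reads of the shared stretch cannot be assigned with certainty. VARS2 is the mitochondrial valyl enzyme. VARS2 read 16.0, 12.7, 13.1, 17.2 and 15.7 CPM with eNAMPT, 9.74, 17.5, 16.2, 24.2 and 21.4 with PDGF-BB, 15.7, 15.7, 15.9, 12.4 and 15.1 with both factors, and 13.5, 3.55, 13.5, 13.4 and 18.8 in control cells. Control replicate 2 had 11 counts, far under the rest, and 2 libraries with PDGF-BB lay above all controls. The log2 fold changes with PDGF-BB were -0.48 (95% interval -0.90 to -0.06, unadjusted p = 0.0272) for HARS2 and 0.51 (95% interval 0.02 to 1.00, unadjusted p = 0.0431) for VARS2, with VARS2 at 0.27 without control replicate 2. MARS2, the methionyl enzyme (ENSG00000247626, chromosome 2, 197705369 to 197708387, plus strand), had the highest pooled log2 fold change of the 38 with PDGF-BB, at 0.54 (95% interval 0.08 to 1.01, unadjusted p = 0.0236), on between 9 and 35 counts per library. MARS2 read 5.03, 2.85, 6.27, 3.19 and 7.51 CPM with eNAMPT, 8.86, 10.1, 5.13, 5.90 and 10.5 with PDGF-BB, 7.33, 3.25, 6.50, 6.99 and 9.86 with both factors, and 3.98, 4.20, 5.91, 4.54 and 7.16 in control cells. Libraries of all 4 groups mixed between the extremes.

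IARS2 and CARS2 pointed lower with PDGF-BB without passing. IARS2, the isoleucyl enzyme (ENSG00000067704, chromosome 1, 220094102 to 220148041, plus strand), was the mitochondrial gene with the smallest p for both factors. IARS2 read 45.6, 44.1, 30.8, 47.2 and 48.3 CPM with eNAMPT, 47.2, 49.4, 41.6, 27.3 and 46.5 with PDGF-BB, 34.9, 47.4, 35.1, 31.3 and 36.8 with both factors, and 59.7, 45.5, 43.3, 41.9 and 51.2 in control cells. With both factors 4 of 5 libraries lay below every control and 1 lay within the control range. Both factors against control gave a log2 fold change of -0.38, 95% interval -0.67 to -0.09, unadjusted p = 0.0126, adjusted p = 0.249. CARS2, the cysteinyl enzyme (ENSG00000134905, chromosome 13, 110641412 to 110713603, minus strand), is also known to make cysteine persulfide. CARS2 read 29.6, 17.1, 17.7, 20.1 and 17.0 CPM with eNAMPT, 14.5, 20.1, 18.1, 19.3 and 11.2 with PDGF-BB, 19.9, 15.2, 14.0, 18.6 and 11.2 with both factors, and 25.1, 17.4, 21.7, 17.9 and 22.5 in control cells. Replicate 1 with eNAMPT was the highest, while 2 of 5 libraries with PDGF-BB and 3 of 5 with both factors lay below every control. Its log2 fold change was -0.40 (95% interval -0.80 to -0.01, unadjusted p = 0.0448) with both factors and -0.35 (95% interval -0.62 to -0.07, unadjusted p = 0.0157) over the pooled libraries with PDGF-BB.

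AARS2 and FARS2 gave the smallest p-values of the mitochondrial class when eNAMPT was added to PDGF-BB. AARS2, the alanyl enzyme (ENSG00000124608, chromosome 6, 44299654 to 44313326, minus strand), is known for mutations in cardiomyopathy and leukoencephalopathy. AARS2 read 6.80, 6.66, 9.81, 5.42 and 9.47 CPM with eNAMPT, 10.0, 6.03, 11.9, 6.83 and 8.38 with PDGF-BB, 3.84, 4.88, 8.78, 4.40 and 4.60 with both factors, and 7.34, 6.46, 7.55, 11.8 and 6.82 in control cells. With both factors 4 of 5 libraries lay below every library of the other groups and the other 1 among them. Against PDGF-BB alone both factors gave a log2 fold change of -0.71, 95% interval -1.30 to -0.12, unadjusted p = 0.0195, adjusted p = 0.9998, on between 11 and 44 counts per library. FARS2 (ENSG00000145982, chromosome 6, 5261044 to 5829192, plus strand) is the phenylalanyl enzyme, which works as a single chain. FARS2 read 16.9, 11.4, 13.9, 16.3 and 22.5 CPM with eNAMPT, 14.2, 18.7, 19.4, 14.3 and 9.31 with PDGF-BB, 12.9, 8.40, 10.7, 11.9 and 13.8 with both factors, and 12.5, 18.4, 8.21, 15.2 and 13.0 in control cells. The libraries with both factors kept to the lower part of the range, and each other group reached both above and into it. Both factors against PDGF-BB gave a log2 fold change of -0.40 (95% interval -0.86 to 0.05, unadjusted p = 0.0807) and against eNAMPT -0.49 (95% interval -0.94 to -0.03, unadjusted p = 0.0357).

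RARS2, the arginyl enzyme of the mitochondrion, is known for pontocerebellar hypoplasia in patients with mutations. RARS2 read 48.2, 49.1, 48.8, 48.1 and 54.5 CPM with eNAMPT, 45.2, 60.3, 41.8, 46.6 and 37.5 with PDGF-BB, 42.2, 45.5, 61.1, 52.0 and 49.95 with both factors, and 59.1, 52.6, 46.9, 53.4 and 43.7 in control cells. The 5 eNAMPT libraries lay close together inside the wider control range. Its pooled log2 fold change with PDGF-BB was -0.07 (95% interval -0.24 to 0.11). A further 7 mitochondrial genes, EARS2, LARS2, NARS2, PARS2, SARS2, WARS2 and YARS2, averaged between 3.85 and 23.9 CPM. Their pooled log2 fold changes lay between -0.22 and 0.14 with PDGF-BB and between -0.16 and 0.19 with eNAMPT.

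The interaction asks whether eNAMPT acts differently with and without PDGF-BB. By edgeR 0 of 38 members and 0 of 12111 genes were called, a background of 0%, and 406 genes (3.35%) had an unadjusted p under 0.05. Among them were 2 members. IARS had a log2 fold change of 0.31, 95% interval 0.04 to 0.59, unadjusted p = 0.0259, adjusted p = 0.999, and FARS2 had a log2 fold change of -0.66, 95% interval -1.30 to -0.02, unadjusted p = 0.0425, adjusted p = 0.999. DESeq2 and limma-voom called 0 and 0 members. For the mitochondrial class 2 of 17 intervals of the interaction lay inside ±0.5, so differences of that size were not detectable for most of these genes at this depth.

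Summed over each class, the groups overlapped. The 21 cytosolic genes together took 3098, 3102, 3292, 3230.1 and 3309.9 CPM with eNAMPT, 3115, 3217, 3427, 3291 and 3239.8 with PDGF-BB, 3205, 3073, 3395, 3396 and 3463 with both factors and 3031, 3125, 3255, 3194 and 3378 in control cells. The ranges overlapped, with means of 3206 ± 102 CPM with eNAMPT, 3258 ± 114 with PDGF-BB, 3307 ± 162 with both factors and 3197 ± 131 in control cells (SD, n = 5 each). The 17 mitochondrial genes took 312, 299, 284, 315 and 346 CPM with eNAMPT, 281, 334, 298, 294 and 296 with PDGF-BB, 308, 279, 289, 285 and 308 with both factors and 326, 311, 314, 302 and 319 in control cells. Their means were 311 ± 23.1 CPM with eNAMPT, 301 ± 19.7 with PDGF-BB, 294 ± 13.2 with both and 315 ± 8.90 in control cells. Below the lowest control library lay 2 of 5 libraries with eNAMPT, 4 of 5 with PDGF-BB and 3 of 5 with both factors. As a share of the cytosolic sum the mitochondrial sum was 9.71 ± 0.686% with eNAMPT, 9.24 ± 0.662% with PDGF-BB, 8.90 ± 0.485% with both factors and 9.86 ± 0.544% in control cells. Transcripts of the mitochondrial genome took 8.38% to 9.39% of counts with eNAMPT, 8.27% to 8.99% with PDGF-BB, 8.35% to 8.83% with both factors and 8.49% to 9.71% in control cells. These sums are a description, with no test.

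**Figure D5:**
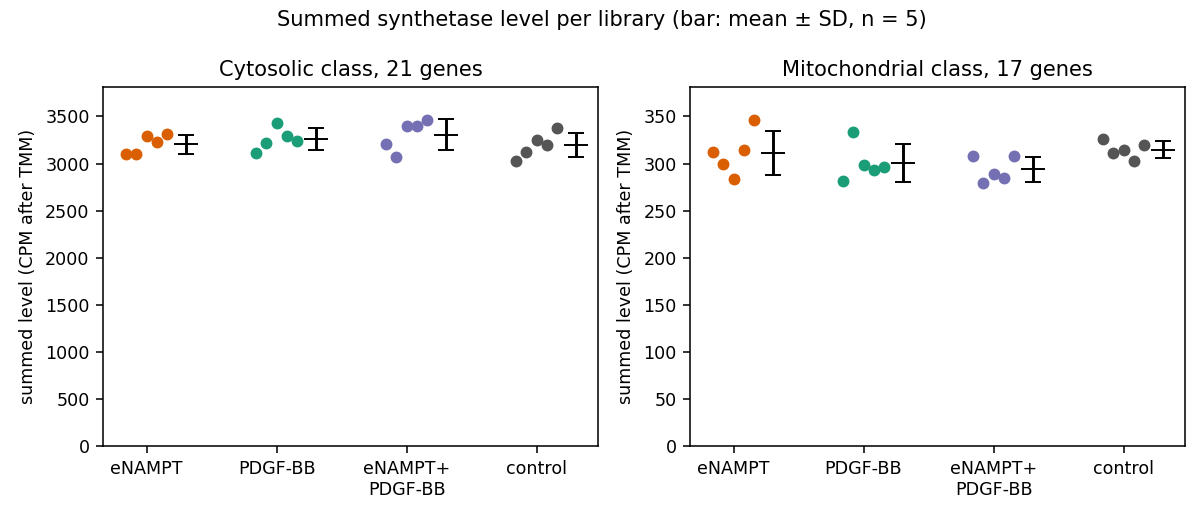
Summed CPM of the 21 cytosolic (left) and 17 mitochondrial (right) synthetase genes in each library (vertical axes from 0), with mean and SD of 5 libraries beside the points. The cytosolic means lie between 3197 and 3307 CPM and the mitochondrial means between 294 and 315 CPM, and the 4 groups overlap in both.

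Genes on either side of the synthetases in translation were not called either. Over all genes 0% to 3.96% were called in a comparison, so a count of 0 in lists this short says nothing particular of them. Of 14 other genes of tRNA charging, 13 were tested, among them FARSA and FARSB for the cytosolic phenylalanyl enzyme and GATB, GATC and QRSL1 of the mitochondrial amidotransferase, and 0 were called in any of the 8 comparisons. FARSA stood at 0.05 (95% interval -0.07 to 0.18) and FARSB at 0.01 (-0.12 to 0.14) in log2 fold change with PDGF-BB over the pooled libraries. Cytosolic elongation factors had 7 tested members of 8, and mitochondrial translation factors 10 of 11, with 0 called. In each of the 3 lists 0 or 1 gene had an unadjusted p under 0.05 in each comparison, where 3.35% to 15.1% of all genes did (edgeR). EEF1G, an elongation factor subunit, is listed at 0 in every library and was not tested. The median log2 fold changes with PDGF-BB were -0.06, 0.07 and 0.05 for the charging, elongation and mitochondrial lists, beside -0.01 for all genes. EEF1A1, which carries the charged tRNA to the ribosome, stood at 0.09 with PDGF-BB, and TUFM, its mitochondrial counterpart, at 0.02.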

How the data were processed

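RNA of 20 pericyte samples was sequenced, and the authors deposited counts per gene without normalization, at 2894878 to 4011066 gene counts per library, which limits the precision for genes of few counts. Per the submitters' processing notes, the build was GRCh38 and the tools were DESeq2 1.18.1, featureCounts 1.6.4, STAR 2.6.1a and FastQC 0.11.7. The authors' deposited table also holds their log2 fold changes, the first-named group over the second, and their adjusted p-values. A second deposited table of counts, never lower, served as an alternative, and what separates the 2 tables is not given in the sources used here.

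From the deposited counts, 99 spike-in rows were left out, and 12111 of 58676 genes passed filterByExpr of edgeR 4.0.16 (R 4.3.3). All 20 libraries entered 1 quasi-likelihood fit with TMM scaling and no covariate, with Benjamini-Hochberg adjustment over the genes of 1 comparison at a time, 8 in all, and calls under an adjusted p of 0.05. DESeq2 1.42.0, limma-voom (limma 3.58.1), other filters and scalings, a replicate block, the second table and leaving out each library were alternatives. The fits were tested on simulated data. Scaling by spike-in counts, the test of replicate numbers and the motif of the WARS promoter were added after seeing the data.

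Values in every library are given for called members, the 2 of each class with the smallest p in each pairwise or pooled comparison, the smallest p of the interaction, the highest per length and the lowest cytosolic gene, the scaffolds, EPRS, GARS and KARS. From the other lists, called genes were named, up to 4 with the smallest p per comparison, and IRF1, PSMB9, B2M, FARSA, FARSB, EEF1A1, TUFM, EEF1G and ASNS were named for their roles with their values known. Values of 1 member and 1 interferon response gene are not reported here singly. The members and lists were chosen with earlier results of these data known.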

Additional observations from a re-analysis of the deposited data

Results flagged for a closer look

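In 15 of 164 groups of 5 libraries, 1 library stood apart from the other 4 by more than Dixon's 95% critical value of 0.71 of the group's range. Chance gives about 5% of groups, or 8.2 of 164. With eNAMPT, RARS in replicate 5 had 411 CPM against 331 to 343 CPM in the other 4, and RARS2 in the same library 54.5 CPM against 48.1 to 49.1 CPM. Replicate 1 with eNAMPT had 29.6 CPM of CARS2, above 17.0 to 20.1 CPM, and 55.0 CPM of EEF1E1, below 73.6 to 79.3 CPM. IARS2 in eNAMPT replicate 3 had 30.8 CPM, below 44.1 to 48.3 CPM.

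With PDGF-BB, replicate 3 had 139 CPM of EPRS, above 126 to 129.6 CPM, and 5.94 CPM of PARS2, above 2.58 to 3.11 CPM. In PDGF-BB replicate 2 the mitochondrial sum was 10.4% of the cytosolic sum, above 8.70% to 9.14% in the other 4. With both factors, replicate 3 had 8.78 CPM of AARS2, above 3.84 to 4.88 CPM. Replicate 4 with both factors had 12.4 CPM of VARS2, below 15.1 to 15.9 CPM, and 19.9 CPM of WARS2, above 10.8 to 13.3 CPM.

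In control cells, replicate 4 had 11.8 CPM of AARS2, above 6.46 to 7.55 CPM. Control replicate 5 stood apart for 3 genes, with 25.6 CPM of EARS2 above 19.0 to 20.03 CPM, 11.6 CPM of NARS2 above 6.94 to 8.21 CPM, and 15.7 CPM of TARS2 below 23.0 to 25.3 CPM. No library of WARS stood apart in this way in any of the 4 groups.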

How the results depend on the processing

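Of 920 values of 31 gene results under the alternatives, 905 kept their direction and their side of the threshold, 10 lost the call, 1 gained it and 4 changed sign. All 10 lost calls were of WARS, with both factors against control or in the pooled PDGF-BB comparison. These were the gene results called in the main fit. Many of the others lay far from the threshold, so that they kept their side tells little. With libraries scaled by spike-in counts, or at an adjusted p under 0.01, 0 of 38 members were called with both factors against control and in the pooled PDGF-BB comparison. Leaving out 1 library at a time gave 0 to 1 called members with both factors against control (6 of 20 fits lost WARS, adjusted p 0.0189 to 0.105) and 1 to 1 in the pooled PDGF-BB comparison. The fit with replicate number as a block called 1 member, WARS, with PDGF-BB against control (log2 fold change 0.28, adjusted p = 0.0149). The numbers were not taken to pair the samples, since 12 of 30 same-numbered pairs, not all, correlated over 0.1 (r 0.00138 to 0.176) and the labels name nothing they share. In 21 of the 30 the own number gave the highest r, which is a hint from the data and not from the design. A test of the replicate numbers, added after seeing the data, called 12.8% of all genes (edgeR). The main p-values and intervals take no account of what same-numbered libraries may share. The changes of sign were SARS (-0.00894) and WARS (-0.0897) for both factors against PDGF-BB and LARS (-0.00475) for pooled eNAMPT under spike-in scaling, and WARS for both factors against PDGF-BB without PDGF-BB replicate 2 (-0.00263, over all such fits to 0.0874). The cause was not tested. HARS2 with eNAMPT fell by 0.18 without control replicate 2 or 3, in place of 0.30, SARS for both factors against PDGF-BB moved to 0.088 without PDGF-BB replicate 1, in place of 0.14, and TARS2 for both factors against eNAMPT moved to -0.19 without eNAMPT+PDGF-BB replicate 4.

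Over all genes, the replicate block called 21 genes with eNAMPT, 377 with PDGF-BB, 510 with both factors, 15 for eNAMPT added to PDGF-BB, 511 for PDGF-BB added to eNAMPT, 958 for pooled PDGF-BB and 7 for the interaction, against 9, 147, 240, 7, 185, 480 and 0 without it. Spike-in scaling called 40 with PDGF-BB, 50 with both, 2 for eNAMPT added, 31 for PDGF-BB added, 129 for pooled PDGF-BB and 12 for pooled eNAMPT, where TMM called 19. No filter gave 14 with eNAMPT, 12 for eNAMPT added and 3 for the interaction.

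The summed cytosolic level with eNAMPT, PDGF-BB, both factors and in control cells was 2805, 2838, 2877 and 2787 CPM without GARS and KARS, 2999.6, 3043, 3085 and 2979 CPM without the scaffold genes, and 2773, 2812, 2858 and 2759.7 CPM in the second count table, whose mitochondrial sums were 259.7, 249, 244 and 261 CPM. Under spike-in scaling the cytosolic sums were 3332, 3438 and 3132 CPM in the 3 treated groups, and the mitochondrial sums 278 CPM with both factors and 326 CPM in control cells. The mitochondrial percent of the cytosolic sum was 11.1, 10.6, 10.2 and 11.3 without GARS and KARS, in the same 4 groups, and 9.53 with both factors and 10.6 in control cells without the scaffold genes. The cytosolic over the mitochondrial class median per kb was also taken within each library and averaged over the 20 libraries. This mean ratio was 9.60 with the longest transcript as the length, against 8.48 with the exon length. Depth limits the mitochondrial genes most, at 3 to 210 counts per library.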

Other observations

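Replicate numbers separated some cytosolic synthetase genes. In the edgeR fit with the replicate block, a test of the 5 replicate numbers, added after seeing the data, called 8 of 21 cytosolic members and 0 of 17 mitochondrial members, against 12.8% of all genes (1546 of 12111). SARS averaged 158, 155, 180.03, 187 and 187 CPM over the 4 groups in replicates 1 to 5 (adjusted p = 0.00184), and GARS had an adjusted p of 0.00296 in the same edgeR test. CARS, KARS, RARS, LARS, HARS and MARS were the others called. The labels do not say what a replicate number shares.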
